A study of Mus musculus with 12 samples.

Results

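Cytosolic ribosomal protein genes are the subject here: every gene whose symbol is Rpl or Rps followed by a digit, together with Rpsa, Rplp0, Rplp1 and Rplp2. Ribosomal S6 kinases (symbols starting Rps6k), Rps19bp1 and symbols containing -ps, which mark pseudogenes, were not members. The rule found 85 members among 23366 gene symbols, 52 of the large subunit and 33 of the small subunit. A member was tested if at least 2 libraries of a table had it at 10 or above, and 81 of the 85 met this in each of the 3 tables. The 4 others were Rpl10l and Rpl26, listed at 0 in all 12 libraries, and Rpl39l and Rps4y2, with values of 0 to 1.07.

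RNA was sequenced from Beko cells, a mouse pre-T cell line, after depletion of ribosomal RNA from total RNA, in 12 libraries that form 6 groups of 2. The treated groups were cells given 10 µg/ml of DAPT, an inhibitor of gamma-secretase (the protease that releases the active part of Notch receptors), for 24 h, cells given 0.01 µg/ml of apicidin, an inhibitor of histone deacetylases, for 24 h, and cells infected with a plasmid for a short hairpin RNA against Hdac3 (shHdac3), collected 96 h after puromycin. Each had its own controls: DMSO for 24 h in each inhibitor experiment, and a scrambled hairpin, collected 96 h after puromycin, for shHdac3. The descriptions of the knockdown samples name Sh1, while their other labels speak of hairpins in the plural, so whether 1 hairpin or a mix was used is not clear, and the labels do not say whether the libraries of a group came from separate cultures, so every p-value here measures the spread between libraries, which may be technical. The series title names the question as the expression of Notch target genes when HDAC3 is lost.

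Each cytosolic ribosome is built from ribosomal RNA and one copy of almost every ribosomal protein, with the acidic stalk proteins as the best known exception, so these genes are among the most strongly expressed of a growing cell. Their messenger RNAs usually start with a run of pyrimidines at the 5′ end (a 5′ terminal oligopyrimidine tract, or TOP), through which mTOR signalling and the protein LARP1 control translation and stability. In T cell precursors, Notch and MYC are known to raise growth and ribosome production, and loss of single ribosomal proteins such as Rpl22 is known to block T cell development in mice.

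The bases around 8 transcription starts are shown because a pyrimidine tract there is the textbook feature of the family. All of these genes but Rpl35, which has the longest tract of the 8, carry results below. Each line gives 30 bases before to 20 bases after the annotated start (RefSeq, GRCm38.p6), 5′ to 3′ on the sense strand. Capitals mark the longest run of 7 or more C or T bases within the window from 20 bases before to 20 after the start. Such a run, called a tract below, may lie outside the messenger RNA, as in Rps27l, where it ends before the annotated start. A tract in this sense is therefore not the same as a TOP. Rps6 is a canonical member at chr4:86857348-86857397 (minus strand), Rpl35 one at chr2:39005112-39005161 (minus), and Rps2 one at chr17:24720033-24720082 (plus). Rpl22 (chr4:152325696-152325745, plus) and its paralog Rpl22l1 (chr3:28805478-28805527, plus) moved apart after Hdac3 knockdown, and Rps27l (chr9:66946056-66946105, plus), Rpl7l1 (chr17:46782637-46782686, minus) and Rpl3l (chr17:24727796-24727845, plus) are the other paralogs whose change differed between experiments.
Rps6: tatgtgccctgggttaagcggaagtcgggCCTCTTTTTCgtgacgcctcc
Rpl35: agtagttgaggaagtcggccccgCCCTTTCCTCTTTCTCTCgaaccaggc
Rps2: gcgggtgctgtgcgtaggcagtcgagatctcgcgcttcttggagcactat
Rpl22: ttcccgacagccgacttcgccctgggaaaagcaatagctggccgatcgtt
Rpl22l1: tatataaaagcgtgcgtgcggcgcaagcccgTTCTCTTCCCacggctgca
Rps27l: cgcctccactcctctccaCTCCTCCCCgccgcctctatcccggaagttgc
Rpl7l1: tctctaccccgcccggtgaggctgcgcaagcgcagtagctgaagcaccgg
Rpl3l: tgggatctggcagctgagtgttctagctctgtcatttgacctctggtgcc
A promoter window of 300 bases was at hand for 64 of the 85 members. A tract was found in 35 of these 64 (54.7%), against 6549 of all 27025 promoters in the same collection (24.2%). The letters CCGGAAG, a core of ETS factor sites, stood on either strand in 25 of the 64 (39.1%) and in 9.12% of all promoters. AAGATGGC, a core of YY1 sites, stood in 5 members (7.81%) and 2.88% of all promoters, and CACGTG, the E-box bound by MYC, in 5 members (7.81%) and 7.24% of all. These are matches of letters and were not tested as binding sites, and a promoter without a match says only that the letters are not in the window.

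Between 21766984 and 42815304 reads were assigned to genes per library. The Hdac3 value was 774 and 819 in shHdac3 libraries, against 2012 and 1930 in scrambled libraries (log2 fold change -1.31 ± 0.05 SE). The pre-T cell markers Ptcra, Cd3e, Cd3g, Cd3d, Rag1, Notch1, Lck and Thy1 had values above 1000 in all 12 libraries. The other pre-T cell markers listed, Il2ra (198 to 811) and Rag2 (300 to 908), stayed below 1000 in all. The B cell genes Ms4a1 and Pax5 and the erythroid genes Hba-a1 and Hbb-b1 were listed at 0 in all. Among the other markers of B cells, myeloid cells and erythroid cells, Cd79a reached 12.03, Klf1 48.1 and Itgam 793, and the rest stayed under 10. Of the 10 pre-T cell markers, 9 fell and 1 rose with DAPT, 9 fell with apicidin and 8 fell with shHdac3 (limma, adjusted p under 0.05). Over all tested genes, 23.1% fell with DAPT, 19.9% with apicidin and 19.4% with shHdac3. Itgam was higher in DAPT libraries (526 and 451, against 235 and 239 in DMSO libraries) and in apicidin libraries (793 and 747, against 527 and 505 in DMSO libraries), and its part in the results was not tested.

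The family took a smaller share of all reads in each treated group than in its controls, although 2 libraries against 2 cannot show this by an exact permutation test. Members held 7.42% and 7.36% of the reads assigned to genes in DAPT libraries, against 7.98% and 8.02% in DMSO libraries. The shares were 6.96% and 7.16% in apicidin libraries, against 8.03% and 7.50% in their DMSO libraries. In shHdac3 libraries they were 6.89% and 6.85%, against 7.98% and 7.29% in scrambled libraries. The groups did not overlap in any of the 3 experiments, and the DAPT controls lay close together while those of the other experiments did not. The differences of the means, treated minus control, were -0.61, -0.70 and -0.77 percentage points for DAPT, apicidin and shHdac3, each with a two-sided exact permutation p = 0.333, the smallest that 2 against 2 allows. Without DMSO replicate 1 the apicidin difference was -0.43, and without scrambled replicate 1 the shHdac3 difference was -0.42. Histone, small structural RNA and Rn45s reads, which are not members, made up 18.0% to 25.6% of a library. With them left out of the total the differences were -0.63 for DAPT, -1.22 for apicidin and -1.29 for shHdac3. A share is relative to all reads of a library. In bulk RNA, fewer cells that express these genes, less of their RNA per cell and more RNA of other genes cannot be told apart.

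**Figure D1:**
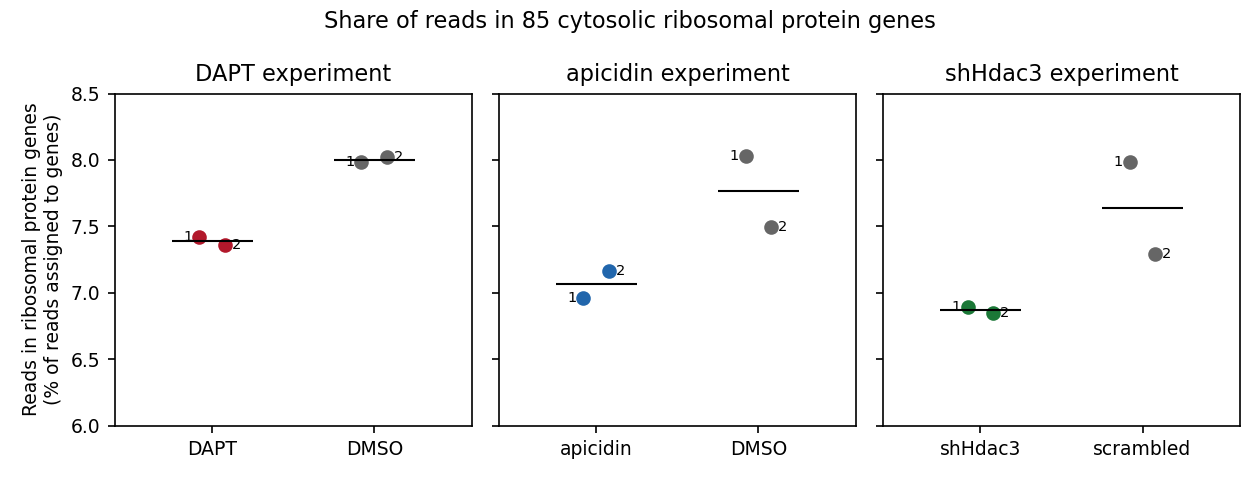
Share of reads assigned to genes that fell in the 85 cytosolic ribosomal protein genes (y axis, percent, starting at 6) in each of the 12 libraries, with the replicate number beside each point and a line at the mean of 2 libraries. Every treated library lies below both of its controls, by the least in apicidin replicate 2 (7.16%, against 7.50% in DMSO replicate 2).

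Within groups the members also moved as a block between libraries, to a degree that varied. Of the 76 members with values of 1000 or more in all 12 libraries, 76 were higher in apicidin replicate 2 than in apicidin replicate 1, with a median log2 difference of 0.08, and 74 were higher in shHdac3 replicate 1 than in replicate 2 (median 0.05). Scrambled replicate 1 exceeded scrambled replicate 2 in 76 of 76, with a median of 0.14, and DMSO replicate 1 of the apicidin experiment exceeded replicate 2 in 62 of 76 (median 0.07). The DMSO libraries of the DAPT experiment differed by 0.00 at the median. A shift shared by the whole family between 2 control libraries was therefore close in size to the median change of the family in the shHdac3 experiment, given next.

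**Figure D2:**
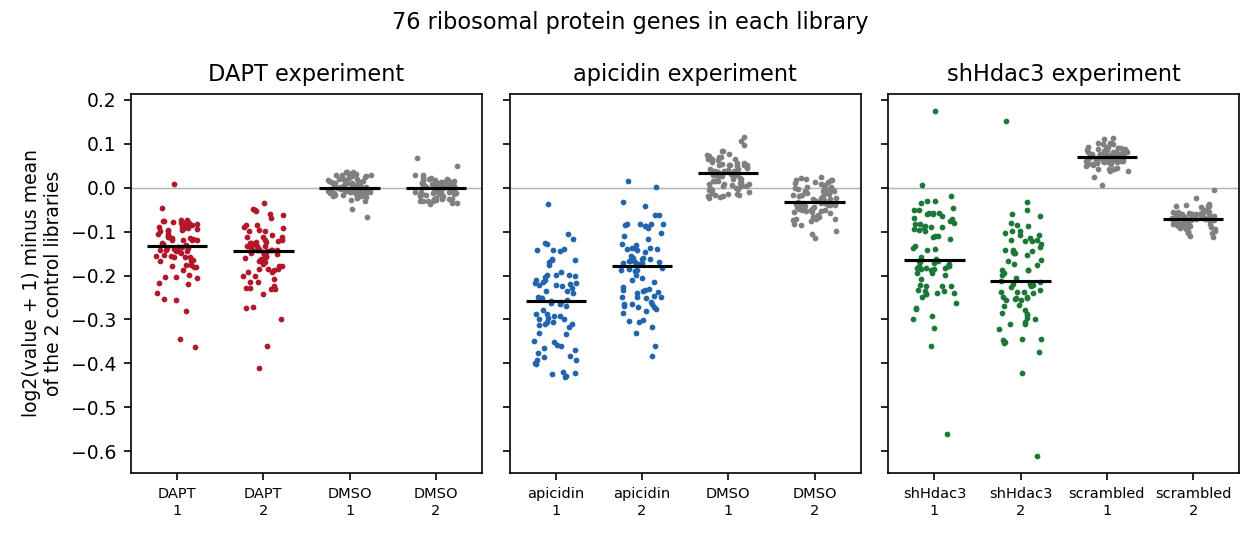
Level of 76 ribosomal protein genes in each library, as log2(value + 1) minus the mean of the 2 control libraries of the same experiment (y axis). Each point is a gene and each line the median of a library. The DAPT libraries lie together and apart from DMSO, and the 2 scrambled libraries lie on either side of 0.

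Most members were slightly lower with DAPT. Of 81 tested members, 66 fell and 1 rose at an adjusted p under 0.05 (limma with Benjamini-Hochberg adjustment over all genes), against 23.1% of all 12840 tested genes that fell and 20.1% that rose. The median log2 fold change of the members was -0.13, a change of -8.75%, against 0.00 for all tested genes. In 76 members both DAPT libraries lay below both DMSO libraries, as 35.5% of all genes did. Of the large subunit 40 of 49 fell, and of the small subunit 26 of 32. The 14 members that did not pass the test all had negative fold changes. With upper-quartile scaling the members' median was -0.09 and 44 fell, while over all genes 2430 fell and 3153 rose, against 2962 and 2584 as reported. The count of members that fell was 37 without DAPT replicate 1 and 29 without DAPT replicate 2, where a single DAPT library is assumed to vary as the controls do. The authors' deposited table called 67 members lower and 1 higher.

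Rps27l, a paralog of Rps27 known as a target of p53, had values of 3602 and 3488 in DAPT libraries, against 4426 and 4854 in DMSO libraries, the largest fall in this comparison (log2 fold change -0.39 ± 0.04 SE, adjusted p = 2.0e-07). Rps2, a small subunit protein at the entrance of the messenger RNA channel, had 77228 and 76488 in DAPT libraries and 99426 and 96829.7 in DMSO libraries, and fell by 0.35 ± 0.04 on the log2 scale. Rpl41, the shortest ribosomal protein with a coding sequence of 75 bases, had 44249 and 42928 in DAPT libraries and 53394 and 52154 in DMSO libraries. For all 3 genes the DAPT libraries lay well below both DMSO libraries and the replicates lay close together. Rpl41 (-0.28 ± 0.04), the large subunit gene Rpl14 (-0.25 ± 0.04), Rpl7l1 (-0.24 ± 0.04), Rpl22l1 (-0.23 ± 0.05), Rps14 (-0.22 ± 0.04) and Rps25 (-0.22 ± 0.04), a small subunit protein known for its role in internal initiation on viral RNAs, made up the 8 largest falls that passed the test. Paralogs held 3 of these 8 places. Of the 5 tested paralogs 4 fell (80%), a share close to the 62 of 76 canonical members (81.6%). The member that rose was Rpl3l, the striated muscle paralog of Rpl3, at low values of 142 and 118 in DAPT libraries, against 65.7 and 61.7 in DMSO libraries (1.02 ± 0.16, adjusted p = 2.5e-05).

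With apicidin most members were lower as well, and the median was further from 0. Of 81 members, 66 fell and 0 rose, against 19.9% of 12463 tested genes that fell and 18.2% that rose (limma, adjusted p under 0.05). None rose at an unadjusted p under 0.05 (0 members), nor with edgeR (0) or DESeq2 (0). The median log2 fold change was -0.21, a change of -13.7%, against 0.00 over all genes. Both apicidin libraries lay below both DMSO libraries in 72 members, as in 34.6% of all genes. Of the large subunit 39 of 49 fell, and of the small subunit 27 of 32. Without apicidin replicate 1, the library with the lower level of all 76 well expressed members, 32 fell. The authors' deposited table called 62 lower and 0 higher.

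Rps20, a small subunit head protein, had 14577 and 14966 in apicidin libraries, against 20098 and 18946 in DMSO libraries (-0.40 ± 0.05, adjusted p = 4.0e-06). Rps6, whose protein is the substrate of the S6 kinases downstream of mTOR, had 34388 and 36084 in apicidin libraries and 47178 and 45531 in DMSO libraries (-0.40 ± 0.06, adjusted p = 3.8e-05). For both genes the 2 groups stood far apart relative to the gap between replicates. Rpl27a (-0.37 ± 0.06), Rpl36 (-0.36 ± 0.05), Rps12 (-0.36 ± 0.05), the stalk gene Rplp1 (-0.36 ± 0.06) and Rpl21 (-0.35 ± 0.05) followed. The fold change furthest from 0 was that of Rpl3l, with 20.8 and 25.5 in apicidin libraries and 61.4 and 44 in DMSO libraries (-1.14 ± 0.26, adjusted p = 0.0022). Rpl3l is the member whose call went in opposite directions with the 2 inhibitors, at levels far below those of the other named genes.

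After Hdac3 knockdown fewer members passed the test, and 2 passed it in the other direction. Of 81 members, 49 fell and 2 rose, against 19.4% of 12482 genes that fell and 22.5% that rose (limma, adjusted p under 0.05). The median log2 fold change was -0.19, a change of -12.1%, against 0.00 over all genes. Both shHdac3 libraries lay below both scrambled libraries in 66 members, as in 33.6% of all genes. Of the large subunit 27 of 49 fell, and of the small subunit 22 of 32. The counts rest in part on scrambled replicate 1, the control library with the high family level: without it 22 members fell and the median was -0.11, and without scrambled replicate 2 the median was -0.24. Upper-quartile scaling gave 66 members that fell, with 2944 genes lower and 2264 higher over all genes, against 2417 and 2811 as reported. The authors' deposited table called 44 lower and 2 higher.

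Rpl29, a basic large subunit protein also studied as a heparin-binding protein, had 11183 and 10810.3 in shHdac3 libraries, against 17265 and 15764 in scrambled libraries, a change of -33.3% (-0.59 ± 0.05, adjusted p = 5.3e-14). Both shHdac3 libraries of Rpl29 lay below the lower scrambled library by far more than the gap between them. Rpl22 (-0.35 ± 0.05), Rps19 (-0.32 ± 0.05), Rpl17 (-0.32 ± 0.06), Rpl23a (-0.31 ± 0.06), Rpl36 (-0.29 ± 0.05) and Rps15 (-0.29 ± 0.05) were also among the 8 largest falls that passed the test. The members that rose were Rpl22l1, with 1309 and 1319 in shHdac3 libraries and 1150.3 and 1092 in scrambled libraries (0.23 ± 0.06, adjusted p = 6.4e-04), and Rpl7l1, with 4362 and 4294 in shHdac3 libraries and 3879 and 3848 in scrambled libraries (0.16 ± 0.04, adjusted p = 0.0023). Both are paralogs.

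**Figure D3:**
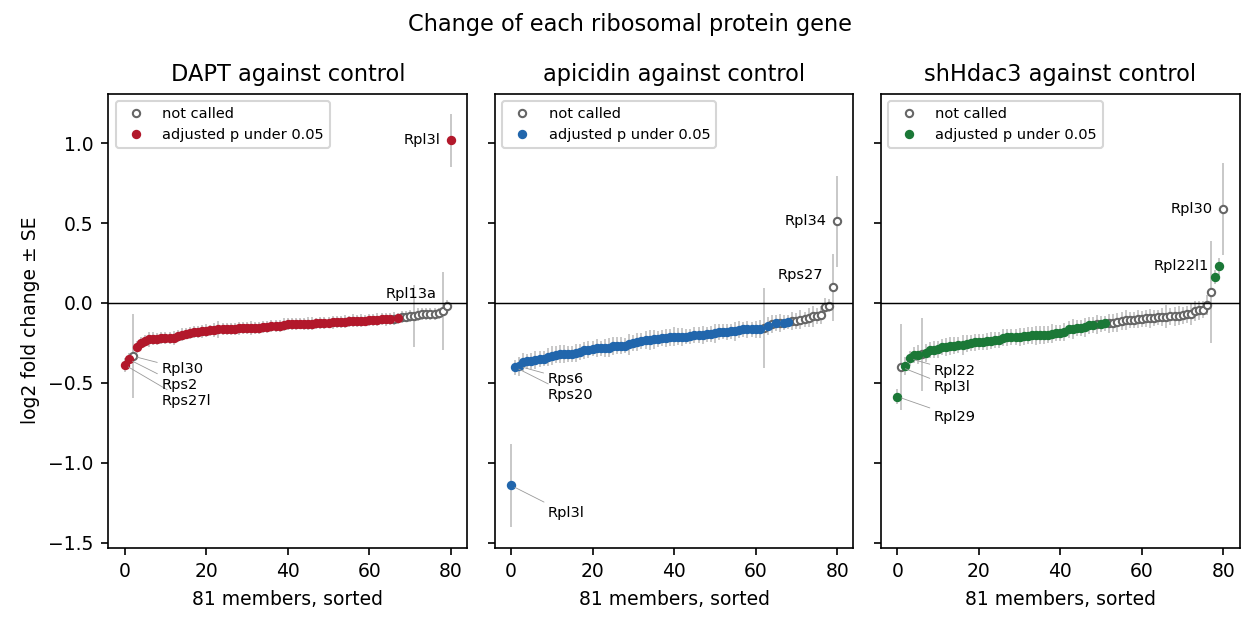
Log2 fold change with its standard error of the 81 tested members, sorted within each comparison (treated against control), filled where the adjusted p was under 0.05. Most points lie between 0 and -0.4 in each panel, with Rpl3l, Rpl29 and the low genes Rpl30 and Rpl34 at the ends.

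The 3 experiments share no libraries, so their calls can be set side by side. Of the 81 members, 35 fell in all 3 comparisons (43.2%), 33 in 2 (40.7%), 10 in 1 and 3 in none, against 2.25% in all 3 and 11.6% in 2 of the 12204 genes tested in every comparison. The 54 members that fell with both DAPT and apicidin were 81.8% of the list in each. The 45 that fell with both apicidin and shHdac3 were 68.2% of the apicidin list and 91.8% of the shHdac3 list, and the 39 that fell with both DAPT and shHdac3 were 59.1% of the DAPT list and 79.6% of the shHdac3 list. Since most members fell in each comparison, shared calls are many in any case: the shares of members that fell, multiplied, give 53.8 members for DAPT with apicidin, 39.9 for apicidin with shHdac3, 39.9 for DAPT with shHdac3 and 32.5 for all 3, close to the 54, 45, 39 and 35 counted. Members that fell in all 3 included Rps19, Rps15, Rplp1, Rpl11, Rpl3, Rpl21, Rpl36 and Rps6.

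The P stalk, which recruits translation elongation factors to the ribosome, is formed by Rplp0, Rplp1 and Rplp2. Rplp1 fell in all 3 comparisons. It had 41001 and 39858 in DAPT libraries against 46368 and 45682 in DMSO libraries (-0.19 ± 0.04, adjusted p = 3.7e-04), and 21647 and 23906 in apicidin libraries against 28764 and 29477 in DMSO libraries (-0.36 ± 0.06, adjusted p = 7.2e-05). After knockdown it had 25158 and 24349.7 in shHdac3 libraries, against 29958 and 27039 in scrambled libraries (-0.20 ± 0.05, adjusted p = 0.0024, and 0.15 without scrambled replicate 1). In none of the experiments did the Rplp1 groups overlap. Rplp0, the scaffold of the stalk, fell with DAPT (-0.16 ± 0.04, adjusted p = 0.0059) and apicidin (-0.26 ± 0.07, adjusted p = 0.0059), and its value for shHdac3 was -0.09 ± 0.07 (adjusted p = 0.35). Its adjusted p was 0.075 without DAPT replicate 1, 0.068 without DAPT replicate 2 and 0.12 without apicidin replicate 1. Rplp2 fell with DAPT (-0.12 ± 0.04, adjusted p = 0.014), a call lost without DAPT replicate 1 (0.25), without DAPT replicate 2 (0.059) and with upper-quartile scaling (0.089). Its value for apicidin was -0.08 ± 0.05, with overlapping groups. Its shHdac3 value of -0.11 ± 0.05 passed only without scrambled replicate 2 (0.018) and with upper-quartile scaling (0.0091).

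Rpl5 and Rpl11 form the 5S ribonucleoprotein with 5S ribosomal RNA, and when ribosome assembly fails they bind MDM2 and stabilise p53. Rpl11 fell in all 3 comparisons, with 31395 and 31592 in DAPT libraries against 35034 and 35062 in DMSO libraries (-0.15 ± 0.04, adjusted p = 0.0015). Its fold changes were -0.17 ± 0.05 for apicidin (adjusted p = 0.019, and 0.33 without apicidin replicate 1) and -0.14 ± 0.05 for shHdac3 (adjusted p = 0.031). The shHdac3 call of Rpl11 was lost without shHdac3 replicate 1 (0.053), shHdac3 replicate 2 (0.22) or scrambled replicate 1 (0.46), and with no filter on low values (0.099). Rpl5 fell with DAPT (-0.13 ± 0.04, adjusted p = 0.011), with an adjusted p of 0.082 without DAPT replicate 1, 0.15 without DAPT replicate 2 and 0.058 with upper-quartile scaling. Its values of -0.09 ± 0.06 for apicidin and -0.08 ± 0.06 for shHdac3 did not pass.

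Members at the peptidyl transferase centre, where peptide bonds form, are Rpl3, Rpl8 and Rpl10. All 3 fell with DAPT and apicidin, and 1 of 3 with shHdac3, against 81.5%, 81.5% and 60.5% of all tested members. Rpl3 had 91760.2 and 90436 in DAPT libraries, against 107372 and 104418 in DMSO libraries (-0.22 ± 0.04, adjusted p = 2.5e-04). Rpl3 also fell with apicidin (-0.23 ± 0.06, adjusted p = 0.007, but 0.11 and 0.054 without apicidin replicate 1 or 2) and with shHdac3 (-0.16 ± 0.06, adjusted p = 0.036). The shHdac3 call of Rpl3 was lost without any single one of the 4 libraries (0.08 to 0.28), with no filter on low values (0.059) and with the replicate number as a block (0.0502). Rpl8 fell with DAPT (-0.17 ± 0.04) and apicidin (-0.19 ± 0.06, lost without apicidin replicate 1 at 0.22 or replicate 2 at 0.067), and its shHdac3 value of -0.11 ± 0.06 passed with upper-quartile scaling (0.023). Rpl10 fell with DAPT (-0.13 ± 0.04, lost without DAPT replicate 2 at 0.28 and with upper-quartile scaling at 0.07) and apicidin (-0.20 ± 0.05, lost without apicidin replicate 1 at 0.063).

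Along the tunnel through which the new protein leaves, or at its rim, sit 8 listed proteins, of which 7 were tested. Of these, 5 fell with DAPT, 5 with apicidin and 6 with shHdac3, with medians of -0.13, -0.23 and -0.27. Over all tested members 81.5%, 81.5% and 60.5% fell, and over all tested genes 23.1%, 19.9% and 19.4%. Rpl23a, which docks the signal recognition particle at the tunnel exit, had 32659.5 and 30983 in shHdac3 libraries, against 41589 and 37564 in scrambled libraries (-0.31 ± 0.06, adjusted p = 2.0e-05). Rpl17 had 28156 and 27281 in shHdac3 libraries and 36634 and 32779 in scrambled libraries (-0.32 ± 0.06, adjusted p = 7.9e-06), and its groups did not overlap. With DAPT the value of Rpl17 was -0.07 ± 0.04 (adjusted p = 0.15). Rpl39, which lines the tunnel, fell with apicidin (-0.23 ± 0.06, adjusted p = 0.0053, and 0.067 without apicidin replicate 1 and 0.18 with DESeq2) and shHdac3 (-0.28 ± 0.05, adjusted p = 1.3e-05). Its DAPT value was -0.09 ± 0.04 (adjusted p = 0.07), which passed without DMSO replicate 1 (0.00091) and with the replicate block (0.022).

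Around the messenger RNA channel and the decoding centre of the small subunit lie Rps2, Rps3, Rps15 and Rps23. All 4 fell with DAPT and with apicidin, and 2 of 4, Rps15 and Rps23, with shHdac3. The shares over all tested members were 81.5%, 81.5% and 60.5%. Rps2 had 43282 and 45734 in apicidin libraries against 50563 and 49982 in DMSO libraries (-0.18 ± 0.06, adjusted p = 0.028), which did not pass without apicidin replicate 1 (0.30), apicidin replicate 2 (0.08) or DMSO replicate 1 (0.0503), or with edgeR (0.06). In shHdac3 libraries Rps2 had 49148 and 47858, against 50292 and 47693 in scrambled libraries (-0.01 ± 0.06, adjusted p = 0.88), and here the groups overlapped. Rps2 was thus among the largest falls with DAPT and passed no threshold after knockdown. Rps15 had 18858 and 18099.5 in shHdac3 libraries and 23910.4 and 21375 in scrambled libraries (-0.29 ± 0.05, adjusted p = 1.2e-05), and Rps23 had -0.25 ± 0.05 (adjusted p = 1.6e-04). Rps3 was near the threshold, with -0.10 ± 0.04 for DAPT (adjusted p = 0.042, lost without DAPT replicate 1 at 0.12, DAPT replicate 2 at 0.38 or DMSO replicate 1 at 0.056, with no filter on low values at 0.066, with upper-quartile scaling at 0.19 and with edgeR at 0.08) and -0.21 ± 0.06 for apicidin (adjusted p = 0.0066, and 0.13 without apicidin replicate 1). After knockdown Rps3 had 34786 and 32811 in shHdac3 libraries, against 38942 and 35299 in scrambled libraries (-0.13 ± 0.06, adjusted p = 0.061), which passed with upper-quartile scaling (0.0057), TMM factors (0.044) and edgeR (0.033) and without scrambled replicate 2 (0.022). The apicidin fold change of Rps15 was -0.22 ± 0.05 (adjusted p = 0.0016, and 0.053 without apicidin replicate 1).

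Among members with roles in signalling or disease outside the ribosome, Rps19 and Rps27a fell in all 3 comparisons. Rps19, the gene most often mutated in Diamond-Blackfan anaemia in humans, had 24024 and 23236 in DAPT libraries and 26713 and 26096 in DMSO libraries (-0.16 ± 0.04, adjusted p = 0.0012, and 0.063 without DAPT replicate 2). It had 10419 and 11059 in apicidin libraries and 14100.3 and 13256 in DMSO libraries (-0.35 ± 0.05, adjusted p = 1.8e-05). After knockdown Rps19 had 12441 and 11918 in shHdac3 libraries, against 16171 and 14339 in scrambled libraries (-0.32 ± 0.05, adjusted p = 8.1e-07). The Rps19 groups did not overlap in any experiment. Rps27a, made as a fusion with ubiquitin, had fold changes of -0.15 ± 0.04 for DAPT, -0.32 ± 0.06 for apicidin and -0.23 ± 0.05 for shHdac3. Rps6 fell by 0.11 ± 0.04 on the log2 scale with DAPT (adjusted p = 0.028, and 0.12 and 0.28 without DAPT replicate 1 or 2, 0.13 with upper-quartile scaling and 0.053 with edgeR) and by 0.20 ± 0.06 on the log2 scale with shHdac3 (adjusted p = 0.006, and 0.097 without shHdac3 replicate 2 and 0.17 without scrambled replicate 1), besides its larger fall with apicidin.

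Rps14, a gene of the human 5q- syndrome, fell with DAPT (-0.22 ± 0.04) and shHdac3 (-0.21 ± 0.05, and an adjusted p of 0.16 without scrambled replicate 1), with -0.11 ± 0.05 for apicidin (adjusted p = 0.087). Rpl13a, released from the ribosome to silence translation in interferon-treated myeloid cells of humans, fell with apicidin (-0.21 ± 0.06, and an adjusted p of 0.18 without apicidin replicate 1) and shHdac3 (-0.26 ± 0.06, and 0.076 without scrambled replicate 1). With DAPT, Rpl13a had 66554 and 63966, against 66502 and 65935 in DMSO libraries (-0.02 ± 0.04, adjusted p = 0.71), the smallest change of any well expressed member in that comparison. Rpsa, also known as the laminin receptor precursor, fell with DAPT (-0.17 ± 0.04, and an adjusted p of 0.068 without DAPT replicate 2), and its values for apicidin (-0.08 ± 0.07) and shHdac3 (-0.07 ± 0.07) did not pass.

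Rpl22 is needed in mice for the development of alpha-beta T cells and is known to repress its paralog Rpl22l1. After Hdac3 knockdown the pair moved apart. Rpl22 had 8505 and 8185 in shHdac3 libraries, against 11195 and 10059.6 in scrambled libraries (-0.35 ± 0.05, adjusted p = 6.1e-08), while Rpl22l1 rose as given above. The ratio of the 2 genes within a library does not depend on the scaling between libraries. Rpl22l1 stood at 15.4% and 16.1% of the Rpl22 value in shHdac3 libraries and at 10.3% and 10.9% in scrambled libraries, a ratio of 1.49 between the means. In apicidin libraries Rpl22l1 stood at 11.5% and 11.6% of Rpl22, against 9.24% and 9.59% in DMSO libraries, with a fall of Rpl22 (-0.32 ± 0.05, adjusted p = 6.1e-05) and no change called for Rpl22l1 (-0.02 ± 0.06, adjusted p = 0.78). With DAPT it stood at 21.4% and 19.5%, against 22% and 23% in DMSO libraries. There Rpl22l1 had 3251 and 2939 in DAPT libraries and 3472 and 3774 in DMSO libraries (adjusted p = 6.0e-04), and Rpl22 (-0.09 ± 0.04, adjusted p = 0.062) passed without DMSO replicate 1 (0.006) and with the replicate block (0.029) only. The Rpl22l1 share was thus higher in both libraries of the apicidin and shHdac3 groups than in their controls, and lower in both DAPT libraries. The share in DMSO libraries itself differed between the 2 inhibitor experiments, at 22% and 23% beside DAPT and 9.24% and 9.59% beside apicidin. That gap between controls was wider than any change with treatment, and its cause was not tested.

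Rpl7l1, a paralog of Rpl7 with a known role in assembly of the large subunit, had 5608 and 5336 in DAPT libraries and 6352 and 6560.4 in DMSO libraries (adjusted p = 2.7e-05). Its apicidin libraries overlapped with DMSO (-0.02 ± 0.04). Rpl7 itself had -0.11 ± 0.04 for DAPT (adjusted p = 0.035), a call lost without DAPT replicate 1 (0.11), DAPT replicate 2 (0.34) or DMSO replicate 2 (0.074), with no filter on low values (0.057), with upper-quartile scaling (0.15) and with edgeR (0.061). Its values of -0.11 ± 0.06 for apicidin and -0.08 ± 0.06 for shHdac3 did not pass. Rps27l fell with shHdac3 as well (-0.16 ± 0.05, adjusted p = 0.012), which did not pass without shHdac3 replicate 2 (0.053) or scrambled replicate 1 (0.33), with no filter on low values (0.063) and with DESeq2 (0.14), and its apicidin value was -0.10 ± 0.05. Rpl36al and Rpl36a encode nearly the same protein. Rpl36al fell with DAPT (-0.22 ± 0.04) and apicidin (-0.33 ± 0.06), as did Rpl36a (-0.19 ± 0.04 and -0.28 ± 0.05). With shHdac3 Rpl36a fell (-0.26 ± 0.05) and Rpl36al had -0.13 ± 0.05 (adjusted p = 0.025), which was lost without shHdac3 replicate 2 (0.21) or scrambled replicate 1 (0.42), with no filter on low values (0.10) and with DESeq2 (0.14). Rps4x, whose paralog Rps4y2 had values of 0 to 1.07, fell with apicidin (-0.28 ± 0.06) and with DAPT (-0.12 ± 0.04, lost without DAPT replicate 1 at 0.079 or replicate 2 at 0.32 and with upper-quartile scaling at 0.12), with overlapping groups after knockdown (-0.05 ± 0.06).

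**Figure D4:**
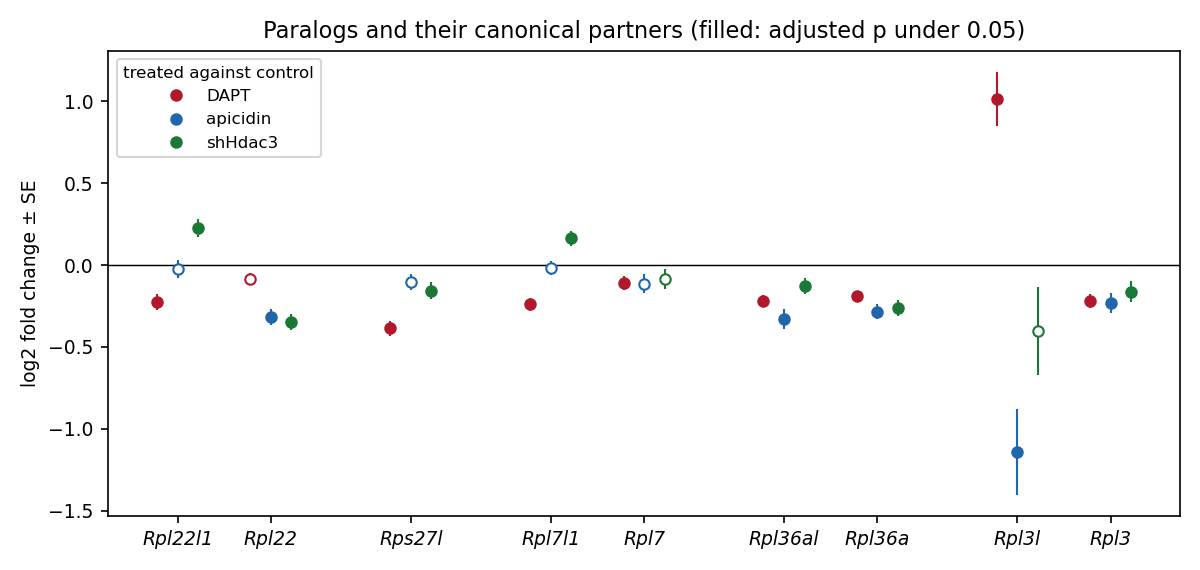
Log2 fold change with its standard error of 5 paralogs and, except for Rps27l, the canonical genes they are related to. Each comparison is treated against control, and points are filled where the adjusted p was under 0.05. Rpl22l1 and Rpl7l1 lie above 0 after Hdac3 knockdown and below 0 with DAPT, and Rpl3l lies above 0 with DAPT and below 0 with apicidin.

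Whether a member responded differently in 2 experiments was tested as the difference between 2 treated-against-control changes, in a fit over all 12 libraries (limma, adjusted over all 13042 tested genes). For DAPT minus shHdac3, 4 members were lower and 8 higher, against 23.8% and 20% of all genes. For DAPT minus apicidin, 4 were lower and 10 higher, against 18.8% and 16% of all genes. For apicidin minus shHdac3, 7 were lower and 1 higher, against 18.3% and 15.1% of all genes. With all libraries in the fit, a smaller share of members than of all genes differed. These counts move with single libraries: leaving out 1 library gave 3 to 10 lower and 4 to 21 higher for DAPT minus shHdac3, 2 to 4 and 3 to 21 for DAPT minus apicidin, and 0 to 17 and 1 to 5 for apicidin minus shHdac3. The balance of the directions turned as well: without scrambled replicate 1, DAPT minus shHdac3 gave 10 lower and 4 higher, and without scrambled replicate 2, apicidin minus shHdac3 gave 2 lower and 5 higher. Without apicidin replicate 1, apicidin minus shHdac3 gave 0 lower and 1 higher and DAPT minus apicidin gave 4 lower and 3 higher.

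Rpl29 fell further with shHdac3 than with either inhibitor. The difference was 0.42 ± 0.06 SE (DAPT minus shHdac3, 95% interval 0.29 to 0.55, adjusted p = 1.1e-05) and 0.43 ± 0.06 SE (apicidin minus shHdac3, 95% interval 0.30 to 0.55, adjusted p = 2.1e-05), and it kept its call under every alternative run. Rpl7l1 and Rpl22l1 were lower with DAPT than with shHdac3, by -0.41 ± 0.06 SE (DAPT minus shHdac3, 95% interval -0.52 to -0.30, adjusted p = 2.0e-06) for Rpl7l1 and -0.46 ± 0.08 SE (DAPT minus shHdac3, 95% interval -0.62 to -0.31, adjusted p = 4.2e-05) for Rpl22l1. Both genes also kept that call under every alternative run. Rps2 was lower with DAPT than with shHdac3 by -0.35 ± 0.07 SE (DAPT minus shHdac3, 95% interval -0.48 to -0.21, adjusted p = 2.8e-04). Rps20 went the other way, and fell further with apicidin: it had 31007 and 30847 in DAPT libraries, against 32565 and 32913 in DMSO libraries (-0.08 ± 0.04, adjusted p = 0.076, which passed with DESeq2 at 0.048, with the replicate block at 0.029 and without DMSO replicate 1 at 0.045), and DAPT minus apicidin was 0.31 ± 0.06 SE (DAPT minus apicidin, 95% interval 0.18 to 0.44, adjusted p = 6.6e-04). Rps6 likewise fell further with apicidin than with DAPT, by 0.27 ± 0.07 SE (DAPT minus apicidin, 95% interval 0.13 to 0.41, adjusted p = 0.0042). Among these, differences for Rpl29, Rpl7l1, Rpl22l1, Rps2, Rps20 and Rps6 exceeded the spread between libraries, and those of other members are described in the closing part.

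Per length of 1 annotated transcript each, members differed in their level. Reads per kb of transcript, scaled by the library total as in RPKM, in the DMSO libraries of the DAPT experiment had a median of 1191 over the 76 well expressed members, with quartiles of 902 and 1663 and a range of 61.0 to 2787. Rps24 (2787), Rpl23a (2479), Rpl8 (2468) and Rplp1 (2271) had the highest levels per length. The paralogs Rpl7l1 (61.0), Rpl22l1 (162), Rps27l (229) and Rpl36al (331) were among the 6 lowest genes with a level above 5, along with Rps20 (217) and Rpl21 (448). The levels of Rps20, Rpl21 and Rpl7l1 rest on long annotated transcripts. These had 3706 bases for a coding sequence of 357 bases in Rps20, 1856 for 480 in Rpl21 and 2606 for 738 in Rpl7l1. Other members had long transcripts too, such as Rpl5 with 2045 bases for a coding sequence of 891 and Rps25 with 1280 for 375. A shorter transcript would give a higher level per length. The annotation behind the counts is not given, so part of the spread may come from the lengths used. At the other end, Rpl34 (1.48), Rpl3l (1.52), Rpl30 (2.39) and Rps27 (4.90) had almost no reads, and Rpl26 had none, although these last 4 canonical proteins (Rpl26, Rpl30, Rpl34 and Rps27) belong to every ribosome. Near-identical copies were counted, and their part in these levels was not tested: 77 of the 84 members with an annotated coding transcript had at least 1 pseudogene elsewhere in the genome with 95% or more identity over 80% or more of the coding sequence, among them Rpl30 with 12 copies, Rpl26 with 6, Rpl34 with 5 and Rps27 with 3. Well counted genes had copies too, such as Rpl21 with 56 and Rpl29 with 26. Reads of any member with copies are uncertain. How reads that match several places were counted is not given in the sources used here. For the 3 low canonical genes that were tested, the groups mostly overlapped: Rpl30 had 31 and 60.1 in DAPT libraries against 63.6 and 47 in DMSO libraries, and 53.5 and 30.3 in shHdac3 libraries against 26.5 and 26.4 in scrambled libraries (0.59 ± 0.29). Leaving out 1 library moved Rpl30 past the threshold in 2 comparisons, to -0.80 without DAPT replicate 2 (adjusted p = 0.020) and 0.99 without shHdac3 replicate 2 (0.0064).

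Coding length was related to the size of the change in 1 experiment. Over the 76 well expressed members, Spearman's rho between coding length and log2 fold change was -0.043 for DAPT, 0.129 for apicidin and 0.471 for shHdac3, given as descriptions across genes, which are not independent. The 38 members with a coding sequence of up to 468 bases had a median of -0.21 with shHdac3, and the 38 longer ones -0.13. The same genes differed by length between the 2 scrambled libraries: rho was -0.71 for scrambled replicate 1 minus replicate 2, so shorter members were higher in replicate 1. In the other groups rho for replicate 1 minus replicate 2 ranged from -0.30 (DMSO of the apicidin experiment) to 0.28 (apicidin). Without scrambled replicate 1 the shHdac3 rho was 0.35, and without any other library 0.44 to 0.55. The part of the difference between the scrambled libraries in the shHdac3 fold changes was not tested beyond these values. By contrast, the 30 members with a small nucleolar RNA inside the gene had medians close to those of the 51 others, at -0.13 and -0.15 for DAPT, -0.22 and -0.21 for apicidin, and -0.16 and -0.19 for shHdac3. The 34 tested members with a pyrimidine tract and the 27 with a promoter window and no tract had medians of -0.15 and -0.13 for DAPT, -0.21 and -0.21 for apicidin, and -0.15 and -0.13 for shHdac3, differences well within the quartiles of either group. Because a tract by this rule may lie outside the messenger RNA, the split does not separate TOP messages from others.

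**Figure D5:**
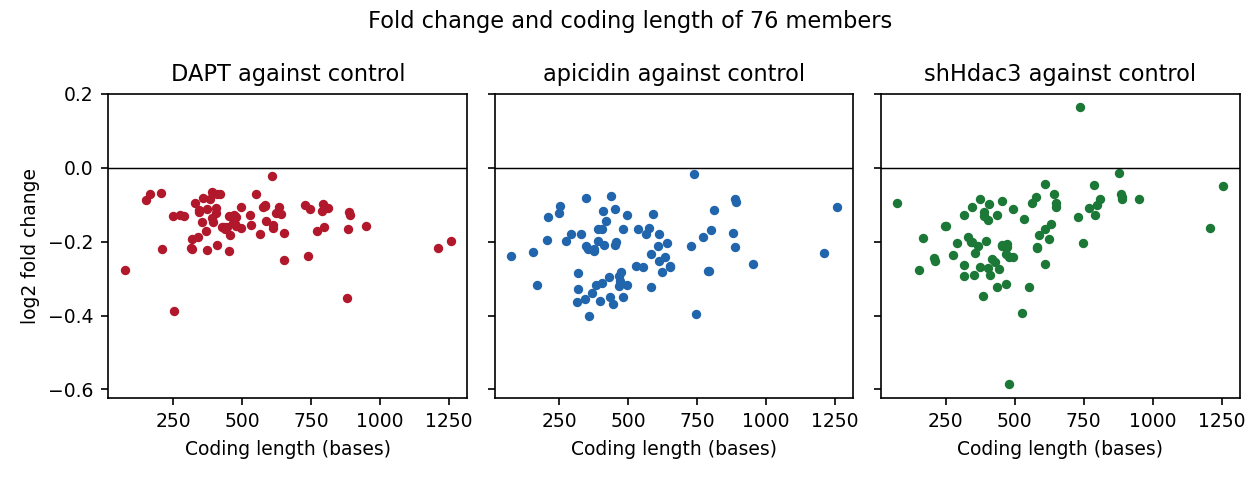
Log2 fold change of 76 ribosomal protein genes (y axis, treated against control) by the length of the coding sequence in bases (x axis). In the shHdac3 panel shorter genes lie lower (Spearman's rho 0.471), and in the other panels no such slope shows (rho -0.043 and 0.129).

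Other genes of translation did not all follow the cytosolic ribosomal proteins. Their counts stand beside the shares of all genes that fell and rose, which were 23.1% and 20.1% with DAPT, 19.9% and 18.2% with apicidin, and 19.4% and 22.5% with shHdac3. Fau, which encodes a ubiquitin-like fusion with a ribosomal protein, fell with DAPT (-0.10 ± 0.04) and shHdac3 (-0.26 ± 0.05) and did not pass with apicidin (-0.08 ± 0.05). Of 76 mitochondrial ribosomal protein genes, 60 fell and 1 rose with DAPT (median -0.21), 22 fell and 4 rose with apicidin (-0.08), and 7 fell and 24 rose with shHdac3 (0.07). Mrps18b had 949 and 900.2 in DAPT libraries, against 1399 and 1440.1 in DMSO libraries (-0.62 ± 0.05), and 924 and 854 in shHdac3 libraries, against 690.0 and 702 in scrambled libraries (0.35 ± 0.06). Cytosolic and mitochondrial ribosomal protein genes therefore had medians of the same sign with both inhibitors and of opposite sign after knockdown.

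Chaperones that escort single ribosomal proteins were also listed. All 7 fell with DAPT (median -0.46), 4 fell and 1 rose with apicidin (-0.15), and 4 rose and 0 fell with shHdac3 (0.21). Grwd1, the chaperone of Rpl3, had 1097 and 1072 in DAPT libraries, against 1704 and 1585 in DMSO libraries (-0.60 ± 0.05), and 1392 and 1422 in shHdac3 libraries, against 1013 and 941 in scrambled libraries (0.53 ± 0.06), with no overlap in either experiment. Tsr2, the chaperone of Rps26, fell with apicidin (-0.39 ± 0.07) and rose with shHdac3 (0.43 ± 0.07). Heatr3, which accompanies Rpl5, fell with DAPT (-0.55 ± 0.04) and rose with shHdac3 (0.50 ± 0.05). Of 19 other translation genes whose messenger RNAs are known or listed as TOP messages, 13 fell and 0 rose with DAPT (median -0.18), 9 fell and 0 rose with apicidin (-0.12), and 3 fell and 5 rose with shHdac3 (0.00). Npm1, a nucleolar histone chaperone, fell with DAPT (-0.56 ± 0.04) and apicidin (-0.25 ± 0.05) and rose with shHdac3 (0.19 ± 0.05), while Tpt1, a classical TOP gene, fell with shHdac3 (-0.27 ± 0.05). Among 14 genes of mTOR signalling and TOP control, 8 fell and 1 rose with DAPT, 3 fell and 3 rose with apicidin, and 0 fell and 3 rose with shHdac3. The 3 of 14 that fell and the 3 that rose with apicidin, and the 3 that rose with shHdac3, are 21.4% each and close to the shares of all genes. Larp1, the TOP-binding protein, had 7901 and 8153 in DAPT libraries, against 9706 and 10097 in DMSO libraries (-0.30 ± 0.04), and 9133 and 8827 in shHdac3 libraries, against 7129 and 7341 in scrambled libraries (0.31 ± 0.04). Larp1 thus passed the test in opposite directions in these experiments, in which most cytosolic ribosomal protein genes fell.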

How the data were processed

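The 12 libraries were made from RNA depleted of ribosomal RNA with a strand-keeping kit, per the labels. The submitters' processing notes list mm9 together with TopHat, Bowtie2, FastQC and DESeq2 and no version of any. Not given in the sources used here are the annotation, the program that counted reads, its strand setting and what was done with multiply mapped reads. Each of the 3 deposited tables holds a signal per gene symbol and library: read counts divided by a size factor of the authors, per the file headers and the values, within that table. The authors' deposited log2 fold changes, standard errors, test statistics (a score) and p-values stand beside them, per the file headers.

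All values (100%) were whole multiples of 1 read within 1e-06, so whole reads were recovered. The main test was limma 3.58.1 with an intensity trend (R 4.3.3) on log2(value + 1) of genes at 10 or more in at least 2 of 4 libraries, two-sided, with Benjamini-Hochberg adjustment over all tested genes, called under 0.05. A fold change on this scale understates the change of low genes. Differences between experiments were tested with limma on recovered reads of all 12 libraries, scaled with common median-of-ratios factors. Alternatives used edgeR 4.0.16 (quasi-likelihood), DESeq2 1.42.0, other scalings, filters and pseudocounts, and each library left out. Methods were tested on simulated data. The members and lists were chosen with earlier results of these data known. Text names go by a rule: the 8 largest called falls and rises per comparison, calls against the majority, the stalk, 5S, paralog, T cell and signalling members, 6 differences per direction and 4 genes of each other list. Members of lists of 5 or fewer, the low genes and the ratios of paralogs were added after their values were seen. Values of some genes that the rule names are not reported here. Coding sequences of 84 members came from GENCODE M21 and promoter windows of 64 from RefSeq (GRCm38.p6), and pseudogenes were searched with BLAST 2.17.0.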

Additional observations from a re-analysis of the deposited data

Results flagged for a closer look

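The responses of the members named below differed between 2 experiments by a test of the difference itself (limma over all 12 libraries, adjusted over all genes). Each value is the difference of 2 log2 fold changes, treated against control. For DAPT minus shHdac3, Rpl22l1 (-0.46), Rpl7l1 (-0.41), Rps2 (-0.35) and Rps27l (-0.24) were lower. Rpl3l (1.41), Rpl29 (0.42), Rpl22 (0.25), Rpl17 (0.25) and Rpl13a (0.23) were higher. For DAPT minus apicidin, Rps27l (-0.30), Rpl7l1 (-0.23), Rpl22l1 (-0.22) and Rps2 (-0.19) were lower. Rpl3l (2.15), Rps20 (0.31), Rps6 (0.27), Rps29 (0.24), Rpl22 (0.22) and Rps9 (0.21) were higher. For apicidin minus shHdac3, Rpl22l1 (-0.25), Rps4x (-0.23), Rpl15 (-0.21), Rpl12 (-0.20), Rps6 (-0.19) and Rpl7l1 (-0.18) were lower, and Rpl29 (0.43) was higher.

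Rps29 is a zinc-binding protein of the small subunit head. It had 11992 and 13168 in apicidin libraries, against 15817 and 15480.5 in DMSO libraries, and 25704 and 26276 in DAPT libraries, against 27288 and 27269.5 in DMSO libraries. Rps4x, Rpl15 and Rpl12 fell with apicidin and did not pass the test with shHdac3. Rpl15 had 23980 and 23710.2 in shHdac3 libraries and 25694 and 23477 in scrambled libraries, which overlapped. Rpl12 had 29023 and 27849.8 in shHdac3 libraries and 32028 and 29455.5 in scrambled libraries, which did not overlap (log2 fold change -0.11).

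Of these 26 differences, 12 kept their call under every alternative run, and 14 lost it when 1 library was left out. For apicidin minus shHdac3, all 6 lower differences were lost without apicidin replicate 1 (adjusted p of 0.17 for Rpl12, 0.11 for Rpl15, 0.10 for Rpl22l1, 0.069 for Rpl7l1, 0.075 for Rps4x and 0.18 for Rps6). Without scrambled replicate 2 the same held for Rpl12 (0.17), Rpl15 (0.12), Rpl22l1 (0.075), Rps4x (0.070) and Rps6 (0.20). Without shHdac3 replicate 1 it held for Rpl12 (0.13), Rpl15 (0.057), Rpl7l1 (0.054) and Rps6 (0.13), without shHdac3 replicate 2 for Rps6 (0.052), and without DMSO replicate 1 for Rpl12 (0.17), Rpl22l1 (0.065) and Rps6 (0.11). For DAPT minus shHdac3, Rpl13a (0.13) and Rpl17 (0.069) were lost without scrambled replicate 1. Rpl13a was also lost without DAPT replicate 1 (0.077) or shHdac3 replicate 2 (0.083), and Rps27l without DAPT replicate 2 (0.052), DMSO replicate 2 (0.10) or scrambled replicate 2 (0.087). For DAPT minus apicidin, Rpl22 (0.11), Rps9 (0.13) and Rps29 (0.093) were lost without apicidin replicate 1, and Rpl22 and Rps9 without several other libraries (0.050 to 0.094). Rpl22l1 (0.12 to 0.23) and Rps2 (0.061 to 0.19) were lost without apicidin replicate 2 and without 3 or more of the other 7 libraries of those experiments.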

How the results depend on the processing

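Members that fell outnumbered those that rose, and the family's median fold change and its difference in share of reads stayed below 0, under all alternatives run. No called value of a named member changed sign, and 14 values of members that had not passed did. The balance of lower and higher differences between experiments turned without some libraries. Of 1943 values of named members and differences under an alternative, 1802 stayed on the same side of the threshold, 125 lost a call and 16 gained one. The median for DAPT was -0.094 with upper-quartile scaling. The share of reads, treated minus control, was -0.63 points for DAPT, -1.22 for apicidin and -1.29 for shHdac3 without histone, small structural RNA and Rn45s genes. Lower differences for apicidin minus shHdac3 numbered 4 with TMM factors and 4 with edgeR, and 2 with edgeR for DAPT minus apicidin. Higher differences for DAPT minus shHdac3 numbered 13 with TMM and 15 with edgeR. The cause was not tested. EdgeR on the recovered reads called 2901 genes lower and 2669 higher with DAPT, 2484 and 2277 with apicidin, and 2475 and 2835 with shHdac3, and DESeq2 called 2170 and 1650, 1326 and 1135, and 1270 and 1695.

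Leaving out 1 library, members that fell numbered 29 to 66 for DAPT, 32 to 67 for apicidin and 22 to 60 for shHdac3, and those that rose 1, 0 and 2 to 3. The median ranged over -0.14 to -0.13 (DAPT), -0.26 to -0.17 (apicidin) and -0.24 to -0.11 (shHdac3), and the difference in share of reads over -0.64 to -0.58, -0.97 to -0.43 and -1.11 to -0.42. Differences numbered 0 to 17 lower and 1 to 5 higher for apicidin minus shHdac3, 2 to 4 and 3 to 21 for DAPT minus apicidin, and 3 to 10 and 4 to 21 for DAPT minus shHdac3. The high counts came without scrambled replicate 1 (17 and 10 lower), scrambled replicate 2 (5 and 21 higher) and DMSO replicate 2 of the apicidin experiment (21 higher), and the 0 without apicidin replicate 1. A left-out library leaves a lone sample that is assumed to vary like the other group.

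With the replicate number as a block, 70 members fell with DAPT, 65 with apicidin and 49 with shHdac3. The replicates share only a number: over all genes, same-numbered libraries deviated with correlations of 0.0187 (DAPT), 0.0388 (apicidin) and 0.0111 (shHdac3), and over the 81 members with -0.496, -0.176 and 0.155. The depth of 21766984 reads or more limits the low genes, whose values of 20 to 75 carry standard errors of 0.19 to 0.32.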

Other observations

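Rows whose symbols contain -ps were kept out of the family. Rpl31-ps12 had 13096 and 12721 in DAPT libraries, against 14052.5 and 13948 in DMSO libraries, 7425 and 7813 in apicidin libraries, against 9096 and 8800.4 in DMSO libraries, and 7708 and 7653 in shHdac3 libraries, against 9736 and 8777 in scrambled libraries. Its groups did not overlap in any experiment, and it stood at 35% to 36.7% of the Rpl31 value in all 12 libraries. Of the 6 such rows 4 were tested, and 2 fell with DAPT, 4 with apicidin and 4 with shHdac3, against 23.1%, 19.9% and 19.4% of all tested genes. Rpl34-ps1 and Rplp2-ps1 were listed at 0 in all libraries. Together the rows held 0.868% to 0.929% as many reads as the members.

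Genes that tie ribosomal proteins to MYC and p53 were called in different directions. Myc fell with DAPT (-0.82 ± 0.04) and apicidin (-0.20 ± 0.04), both by limma over all genes, and had 4475 and 4238 in shHdac3 libraries, against 4118 and 4291 in scrambled libraries (0.05 ± 0.05, adjusted p = 0.39). Trp53 fell with DAPT (-0.37 ± 0.04) and apicidin (-0.16 ± 0.05) and rose with shHdac3 (0.33 ± 0.05). Cdkn1a, a p53 target, rose with DAPT (0.28 ± 0.07) and fell with apicidin (-0.76 ± 0.08) and shHdac3 (-1.50 ± 0.08).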
